A study of Mus musculus with 12 samples.

Results

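Collagen chain genes are described here in mouse embryonic fibroblasts at day 7 of forced reprogramming. They were taken as every protein-coding gene whose symbol is Col, a number, the letter a and a number, which found 44 of the 24207 genes in the deposited count table, 18176 of them protein-coding. The symbols cover 27 collagen types, and the chains were sorted into 9 structural classes from textbook knowledge. RNA was sequenced in 12 libraries, in 4 groups of 3. All cells were of strain C57BL/6 and carried FUW-OSKM and FUW-M2rtTA, which let doxycycline switch on Oct4 (gene symbol Pou5f1), Sox2, Klf4 and cMyc. The double-knockdown group was induced and carried short hairpins against Trim28 and against Setdb1. The Trim28-knockdown group was induced and carried the Trim28 hairpin. The induced control group was induced and carried a scrambled hairpin. The uninduced control group carried the scrambled hairpin and had no factor induction. Trim28 is a corepressor recruited to chromatin by zinc finger proteins, and Setdb1 is a histone methyltransferase that it brings with it.

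The cells grew on irradiated feeder fibroblasts, themselves a source of collagen RNA, and the labels do not say that feeders were removed. In bulk RNA, fewer cells of a type and less RNA per cell cannot be told apart. The labels also do not say that replicates were separate cultures, so the p-values rest on the scatter of these libraries alone, part of which may be technical. Libraries held 11906701 to 19191649 counted reads, so 3 reads in 1 library equal 0.156 to 0.252 CPM (depth-scaled reads, with TMM factors wherever a gene's level is given). Induced control replicate 2 was the shallowest library and had the highest mitochondrial share, 2.37% against 1.78 to 2.27% elsewhere. Trim28 averaged 103 CPM in double-knockdown, 58.4 CPM in Trim28-knockdown, 328 CPM in induced control and 249 CPM in uninduced control libraries. Setdb1 averaged 63.1 CPM in double-knockdown, 122 CPM in Trim28-knockdown, 81.2 CPM in induced control and 60.7 CPM in uninduced control libraries. Trim28 was thus lowered less in the double knockdown than in the single one (log2 fold change 0.82 ± 0.10 (SE) between them, edgeR adjusted p = 4.3e-05), and Setdb1 was higher in Trim28-knockdown than in induced control cells. Reads of the 4 factors can come from the vector as well as from the cells. Against induced controls, Trim28, Setdb1 and the 4 factors all fell with both hairpins (edgeR adjusted p under 0.05, 18.5% of all genes fell). Between double and single knockdown 5 of these 6 genes fell and Trim28 rose. They summed to 1162 to 1470 CPM in double-knockdown and 1823 to 2099 CPM in Trim28-knockdown libraries. The sum was 1841 to 2220 CPM in induced control and 507 to 588 CPM in uninduced control libraries. The part of these levels in the collagen values was not tested.

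Collagens are extracellular proteins whose chains wind into a triple helix, either as homotrimers or as mixtures of chains from different genes. Fibrillar collagens (types I, II, III, V, XI, XXIV and XXVII) form the cross-striated fibrils of skin, tendon, bone and cartilage. Type IV chains build the sheet under epithelia, type VI forms beaded filaments around cells, and the fibril-associated types decorate fibril surfaces. Fibroblasts are the main makers of types I, III, V and VI, and reprogramming moves fibroblasts towards an epithelial state early on. Helix formation needs hydroxylated proline, added in the endoplasmic reticulum by prolyl 4-hydroxylases.

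Start regions are shown for 3 genes whose RNA moved in different ways, Col3a1 (lower with either hairpin set than in induced controls), Col17a1 (higher with induction) and Col7a1 (higher with induction and with the hairpins), and for the one pair of members that start on top of each other. The sequences are from RefSeq on GRCm38.p6, 5′ to 3′ on the gene's strand, ending at the last base before the gene as deposited. They lie at chr1:45311288-45311537 on the plus strand (Col3a1, 250 bases), chr19:47692095-47692292 on the minus strand (Col17a1, 198 bases) and chr9:108953336-108953585 on the plus strand (Col7a1, 250 bases). Capitals mark matches on either strand to TATAAA (the box known from core promoters), to CCAAT (the site of NF-Y) or to GGGCGG (the GC-rich box of Sp1).
Col3a1: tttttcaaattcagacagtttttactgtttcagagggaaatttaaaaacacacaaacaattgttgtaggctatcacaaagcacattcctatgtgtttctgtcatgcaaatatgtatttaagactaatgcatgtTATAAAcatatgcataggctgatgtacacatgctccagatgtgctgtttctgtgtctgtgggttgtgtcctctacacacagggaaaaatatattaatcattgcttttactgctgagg
Col17a1: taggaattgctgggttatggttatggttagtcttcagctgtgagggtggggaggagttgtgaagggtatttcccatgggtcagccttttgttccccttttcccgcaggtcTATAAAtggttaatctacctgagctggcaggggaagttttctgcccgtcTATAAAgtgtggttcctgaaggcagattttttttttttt
Col7a1: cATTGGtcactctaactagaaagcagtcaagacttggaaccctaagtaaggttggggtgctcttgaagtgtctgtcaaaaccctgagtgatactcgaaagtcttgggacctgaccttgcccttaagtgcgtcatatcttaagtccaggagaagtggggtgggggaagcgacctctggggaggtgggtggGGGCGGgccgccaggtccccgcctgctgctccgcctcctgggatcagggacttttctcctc
The Col3a1 stretch held 1 TATAAA and not a single CpG dinucleotide, and its GC content was 35.2%. The Col17a1 stretch held 2 TATAAA and 2 CpG at 45.5% GC. The Col7a1 stretch held 1 CCAAT, read as ATTGG on the plus strand, 1 GGGCGG and 7 CpG at 56.4% GC.

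Col4a1 and Col4a2, which encode the chains of the common type IV heterotrimer, lie head to head on chromosome 8, and their deposited gene bodies overlap by 22 bases. The overlap is in capitals in this plus-strand stretch of 30 bases, chr8:11312801-11312830, from RefSeq on GRCm38.p6.
Col4a1/Col4a2: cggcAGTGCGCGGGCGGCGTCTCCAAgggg
RefSeq start windows of 300 bases (250 before the start and 50 after) were found for 35 of the 44 members, 38 windows in all. TATAAA was in 13.2% of the members' windows, against 13.6% of all 32851 windows, and CCAAT in 34.2%, against 37.4%. GGGCGG was in 60.5% of the members' windows, against 35.7% of all. CpG counts ran from 0 in the windows of Col3a1 and Col28a1 and in 1 of the 2 windows of Col9a1 to 37 in that of Col4a1, with a median of 11.5 over members and 7 over all windows. These matches are descriptions of the letters only.

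Collagen RNA was a large share of the fibroblast transcriptome, and it was lowest in the Trim28-knockdown group. The 44 genes took 2.83, 2.54 and 2.49% of counted reads in double-knockdown libraries, 2.27, 2.03 and 2.02% in Trim28-knockdown libraries, 3.31, 2.41 and 2.79% in induced controls, and 3.83, 3.65 and 3.36% in uninduced controls. The uninduced range lay above that of every induced group, and the Trim28-knockdown range lay below that of every other group. The induced controls spread most (2.84% ± 0.456, SD, n = 3) and covered the whole double-knockdown range (2.62% ± 0.182, SD, n = 3). Col1a1, Col1a2 and Col3a1, the chains of types I and III, made up 55.2 to 63.1% of collagen reads in each library. Fibrillar chains as a class took 2.01% ± 0.140 of counted reads in double-knockdown, 1.53% ± 0.0938 in Trim28-knockdown, 2.09% ± 0.369 in induced control and 2.63% ± 0.211 in uninduced control libraries (SD, n = 3 each).

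**Figure D1:**
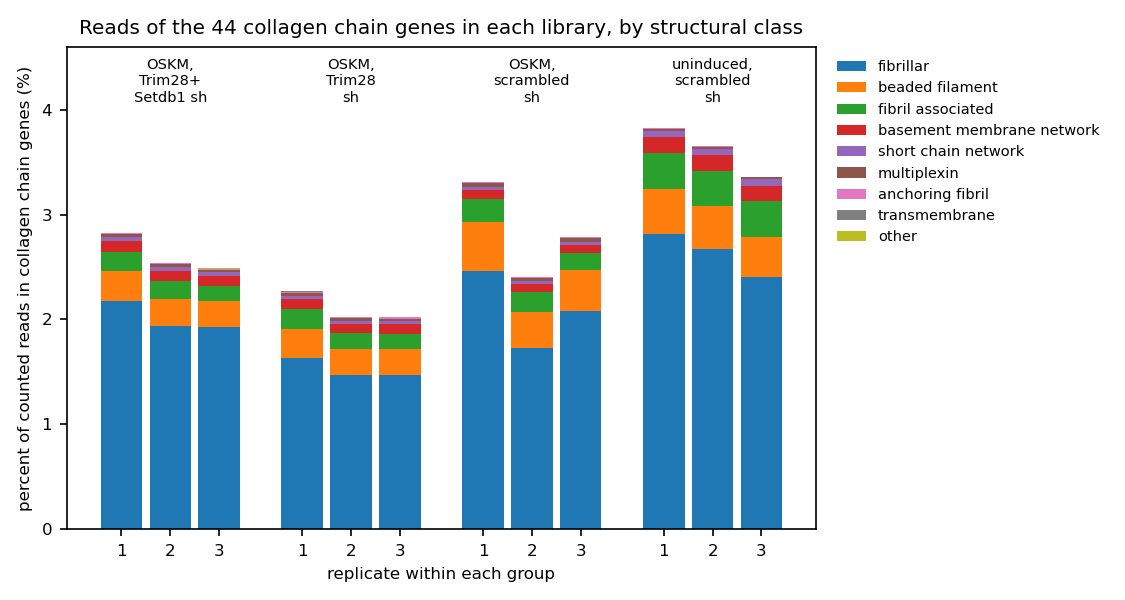
Percent of counted reads that fell in the 44 collagen chain genes in each of the 12 libraries, stacked by structural class; bars are single libraries, grouped by condition. The uninduced controls reach 3.36 to 3.83% and the Trim28-knockdown libraries 2.02 to 2.27%.

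Levels per kilobase of transcript ordered the members much alike in the 4 groups at the top of the list. In uninduced controls Col1a1 (1576 ± 259 CPM per kb) and Col1a2 (1530 ± 113 CPM per kb) came first and did not differ beyond their spread, followed by Col3a1 (808 ± 30.1 CPM per kb) and Col5a2 (441 ± 18.2 CPM per kb; SD, n = 3 each). Col3a1 kept the third place in induced controls (677 ± 126 CPM per kb), ahead of Col6a1 (271 ± 43.5 CPM per kb) and Col5a2 (226 ± 12.8 CPM per kb). In double-knockdown libraries Col5a2 (371 ± 18.4 CPM per kb) and Col3a1 (330 ± 49.3 CPM per kb) stood next to each other with overlapping SDs, and in Trim28-knockdown libraries they were level (279 ± 19.4 and 275 ± 34.6 CPM per kb). At the low end, 8 members averaged under 1 CPM in double-knockdown, 9 in Trim28-knockdown, 10 in induced control and 12 in uninduced control libraries.

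Of the 44 members, 38 had enough reads to be tested; the other 6 were Col4a3, Col4a4, Col6a6, Col9a2, Col13a1 and Col22a1. A gene counts as risen or fallen where its edgeR quasi-likelihood p, adjusted by Benjamini and Hochberg over all 14520 genes tested, was under 0.05. Between induced and uninduced controls, 8 of the 38 rose and 22 fell, where 65.3% of all tested genes were called (32.7% rose and 32.7% fell). The members' median log2 fold change was -0.53, against -0.02 over all tested genes. With the Trim28 hairpin, 7 rose and 10 fell relative to induced controls, where 24.9% of all genes were called (13.1% rose and 11.8% fell), with a median of -0.02 over members and 0.00 over all genes. With both hairpins, 13 rose and 9 fell relative to induced controls, where 36.7% of all genes were called (18.1% rose and 18.5% fell), with a median of -0.05 over members and 0.00 over all genes. Between double and single knockdown, 11 rose and 2 fell, where 21.7% of all genes were called (10% rose and 11.7% fell), with a median of 0.12 over members and 0.00 over all genes. That count of 11 was 7 without double-knockdown replicate 1 and 7 without Trim28-knockdown replicate 2. Relative to uninduced controls, 9 rose and 24 fell in double-knockdown cells (58.8% of all genes called, 31.6% up and 27.2% down), and 7 rose and 25 fell in Trim28-knockdown cells (66.6% of all genes called, 34.1% up and 32.6% down). The comparisons share groups of libraries, so their counts are not independent of each other.

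**Figure D2:**
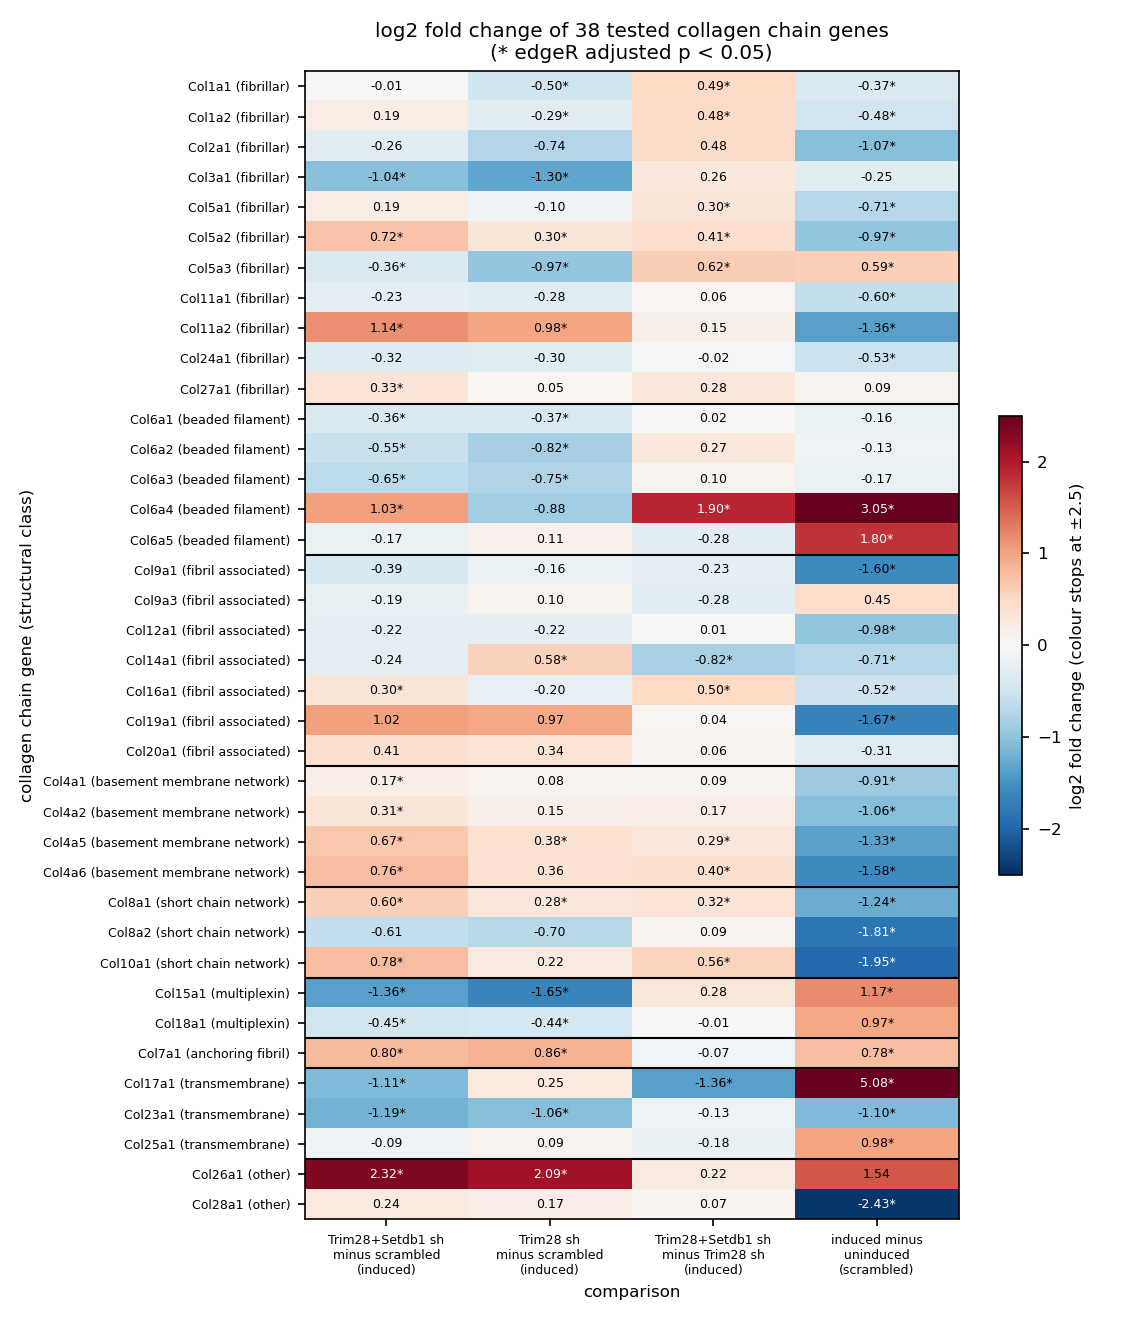
Log2 fold change of the 38 tested collagen chain genes (rows, by structural class) in 4 comparisons (columns), each the first-named group minus the second; red is higher, blue lower, and asterisks mark an edgeR adjusted p under 0.05. The columns that set a hairpin group against induced controls hold falls in Col3a1, Col15a1, Col23a1 and the chains Col6a1 to Col6a3, beside rises in Col5a2, Col7a1, Col11a2 and Col26a1.

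Type I collagen, the bulk of fibroblast matrix, is made of Col1a1 and Col1a2 chains. Col1a1 (11:94936224-94953042 in the deposited table) had 7943, 6817 and 6885 CPM in double-knockdown, 5476, 5036 and 4901 CPM in Trim28-knockdown, 8999, 5451 and 7298 CPM in induced control, and 10564, 9861 and 7620 CPM in uninduced control libraries. Col1a2 had 7211, 6440 and 6426 CPM in double-knockdown, 5150, 4653 and 4597 CPM in Trim28-knockdown, 6877, 4977 and 5781 CPM in induced control, and 8709, 8312 and 7526 CPM in uninduced control libraries. Double-knockdown values of both genes lay wholly above Trim28-knockdown values, while the induced controls, low in replicate 2, overlapped with other groups. Both chains were higher with both hairpins than with the Trim28 hairpin alone (log2 0.49 ± 0.14, adjusted p = 0.0235 for Col1a1, and 0.48 ± 0.10, adjusted p = 0.00297 for Col1a2, edgeR). They fell with the Trim28 hairpin relative to induced controls, by 0.50 ± 0.14 (adjusted p = 0.0188, edgeR) and 0.29 ± 0.10 (adjusted p = 0.0433) on the log2 scale. That last pair of calls rested on single libraries: without induced control replicate 1 the values were -0.32 (adjusted p = 0.0779) and -0.18 (adjusted p = 0.162), and without Trim28-knockdown replicate 2 or 3 the adjusted p was 0.0608 and 0.0651 for Col1a1, and 0.125 and 0.127 for Col1a2. The Col1a2 call was also lost without induced control replicate 3 (adjusted p = 0.0723), without uninduced control replicate 2 (adjusted p = 0.0558) and in a fit of the 2 groups alone (adjusted p = 0.07). Between double and single knockdown, Col1a1 lost its call without double-knockdown replicate 1 or Trim28-knockdown replicate 2 or 3 (adjusted p 0.0842 to 0.104).

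Both type I chains were lower with induction, Col1a2 more firmly than Col1a1. Col1a1 was 1.29-fold and Col1a2 1.39-fold lower in induced than in uninduced controls (log2 -0.37 ± 0.14, edgeR adjusted p = 0.0348, and -0.48 ± 0.10, adjusted p = 0.000562). The Col1a2 values did not overlap between the groups, and its call held in all 20 alternative settings. The Col1a1 values overlapped between the groups, and its call was lost in a fit of the 2 groups alone (adjusted p = 0.119) and without induced control replicate 2 or 3 or uninduced control replicate 1 or 2 (adjusted p 0.0708 to 0.166, lowest size -0.19 without induced control replicate 2).

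Type III collagen, a homotrimer of Col3a1 chains that shares fibrils with type I in skin and vessels, fell with either hairpin set. Col3a1 (1:45311538-45349706) had 2128, 1796 and 1584 CPM in double-knockdown, 1716, 1332 and 1547 CPM in Trim28-knockdown, 4505, 3108 and 3695 CPM in induced control, and 4653, 4320 and 4513 CPM in uninduced control libraries. Every library with a Trim28 hairpin lay below every library without one. Col3a1 was 2.05-fold lower in double-knockdown (log2 -1.04 ± 0.13, edgeR adjusted p = 1.21e-05) and 2.46-fold lower in Trim28-knockdown cells (log2 -1.30 ± 0.13, adjusted p = 1.75e-06) than in induced controls. Between double and single knockdown it differed by 0.26 ± 0.13 (adjusted p = 0.155, edgeR), and between induced and uninduced controls by -0.25 ± 0.13 (adjusted p = 0.0862), neither past the threshold. With the replicate number as a block both passed (edgeR adjusted p = 0.0394 and 0.0122, in that order). Between induced and uninduced controls, though, the data do not pair the replicate numbers. Same-numbered samples there had correlations of 0.30, -0.32 and -0.25 in their deviations from the group mean.

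Col5a2 is the type V chain gene that regulates fibril diameter together with Col5a1. It lies next to Col3a1 on chromosome 1, tail to tail with 24614 bases between them. Relative to induced controls it rose with either hairpin set, where Col3a1 fell. With induction, and between double and single knockdown, both genes had the same sign, without Col3a1 passing the threshold. Col5a2 had 2585, 2341 and 2448 CPM in double-knockdown, 1989, 1808 and 1740 CPM in Trim28-knockdown, 1587, 1477 and 1419 CPM in induced control, and 2887, 2827 and 3058 CPM in uninduced control libraries. The 4 groups did not overlap, with induced controls lowest and uninduced controls highest. It rose 1.64-fold in double-knockdown (log2 0.72 ± 0.07, edgeR adjusted p = 1.26e-06) and 1.23-fold in Trim28-knockdown cells (log2 0.30 ± 0.07, adjusted p = 0.00462) relative to induced controls, and was higher in the double than in the single knockdown (log2 0.41 ± 0.07, adjusted p = 0.000623). Induction alone lowered it 1.96-fold (log2 -0.97 ± 0.07, adjusted p = 5.18e-09).

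The other type V and XI chains split. Col5a1 fell with induction (log2 -0.71 ± 0.09, edgeR adjusted p = 1.69e-06) and was higher in the double than in the single knockdown (0.30 ± 0.08, adjusted p = 0.02), a call lost without double-knockdown replicate 1 or Trim28-knockdown replicate 2 or 3 (adjusted p 0.0728 to 0.0914). Col5a3, another type V chain, had 40.4, 45.8 and 39.6 CPM in double-knockdown, 28.4, 28.9 and 24.8 CPM in Trim28-knockdown, 54.9, 49.0 and 57.1 CPM in induced control, and 37.9, 37.3 and 32.2 CPM in uninduced control libraries. It rose with induction (log2 0.59 ± 0.09, edgeR adjusted p = 3.2e-05), fell with the Trim28 hairpin (-0.97 ± 0.09, adjusted p = 1.33e-06), fell less with both hairpins (-0.36 ± 0.09, adjusted p = 0.00569), and differed between double and single knockdown by 0.62 ± 0.09 (adjusted p = 0.000237).

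Type XI chains are best known from cartilage. Col11a1 (262 to 346 CPM in double-knockdown, 257 to 318 CPM in Trim28-knockdown, 305 to 391 CPM in induced control and 468 to 572 CPM in uninduced control libraries) fell with induction by 0.60 ± 0.11 on the log2 scale (edgeR adjusted p = 0.000211). Relative to induced controls its value with both hairpins was -0.23 ± 0.11 (adjusted p = 0.13), and that of Col5a1 was 0.19 ± 0.08 (adjusted p = 0.085). With the replicate number as a block, which the data pair in that comparison, these 2 members passed (adjusted p = 0.0494 for Col11a1 and 0.0449 for Col5a1), and the counts became 14 rises and 10 falls. Col11a2 had 6.59, 6.77 and 5.66 CPM in double-knockdown, 5.90, 5.55 and 5.66 CPM in Trim28-knockdown, 3.04, 2.02 and 3.35 CPM in induced control, and 6.99, 7.77 and 7.44 CPM in uninduced control libraries. Induced controls were lowest, apart from every other group. The rise was 1.14 ± 0.16 with both hairpins (edgeR adjusted p = 4.53e-05) and 0.98 ± 0.16 with the Trim28 hairpin (adjusted p = 0.000301) on the log2 scale. Col2a1, the main cartilage chain, had 24.5, 10.3 and 12 CPM in double-knockdown, 11.9, 14.8 and 6.77 CPM in Trim28-knockdown, 20.4, 18.7 and 16.7 CPM in induced control, and 43.6, 41.8 and 31.8 CPM in uninduced control libraries. It fell with induction (-1.07 ± 0.26, edgeR adjusted p = 0.00172) and passed in no comparison among induced groups. Col24a1, a minor fibrillar chain, fell with induction (-0.53 ± 0.19, adjusted p = 0.0217), a call lost without induced control replicate 2 (-0.34, adjusted p = 0.0831) or uninduced control replicate 2 or 3 (adjusted p = 0.0892 and 0.0516), and passed in no comparison among induced groups. Col27a1 passed with both hairpins alone among the 3 comparisons of induced groups (0.33 ± 0.12, adjusted p = 0.0418), and 11 of 20 alternative settings ended that call, among them leaving out any double-knockdown or Trim28-knockdown replicate or induced control replicate 2 or 3 (adjusted p 0.0568 to 0.176; 0.19 on the log2 scale without induced control replicate 2).

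**Figure D3:**
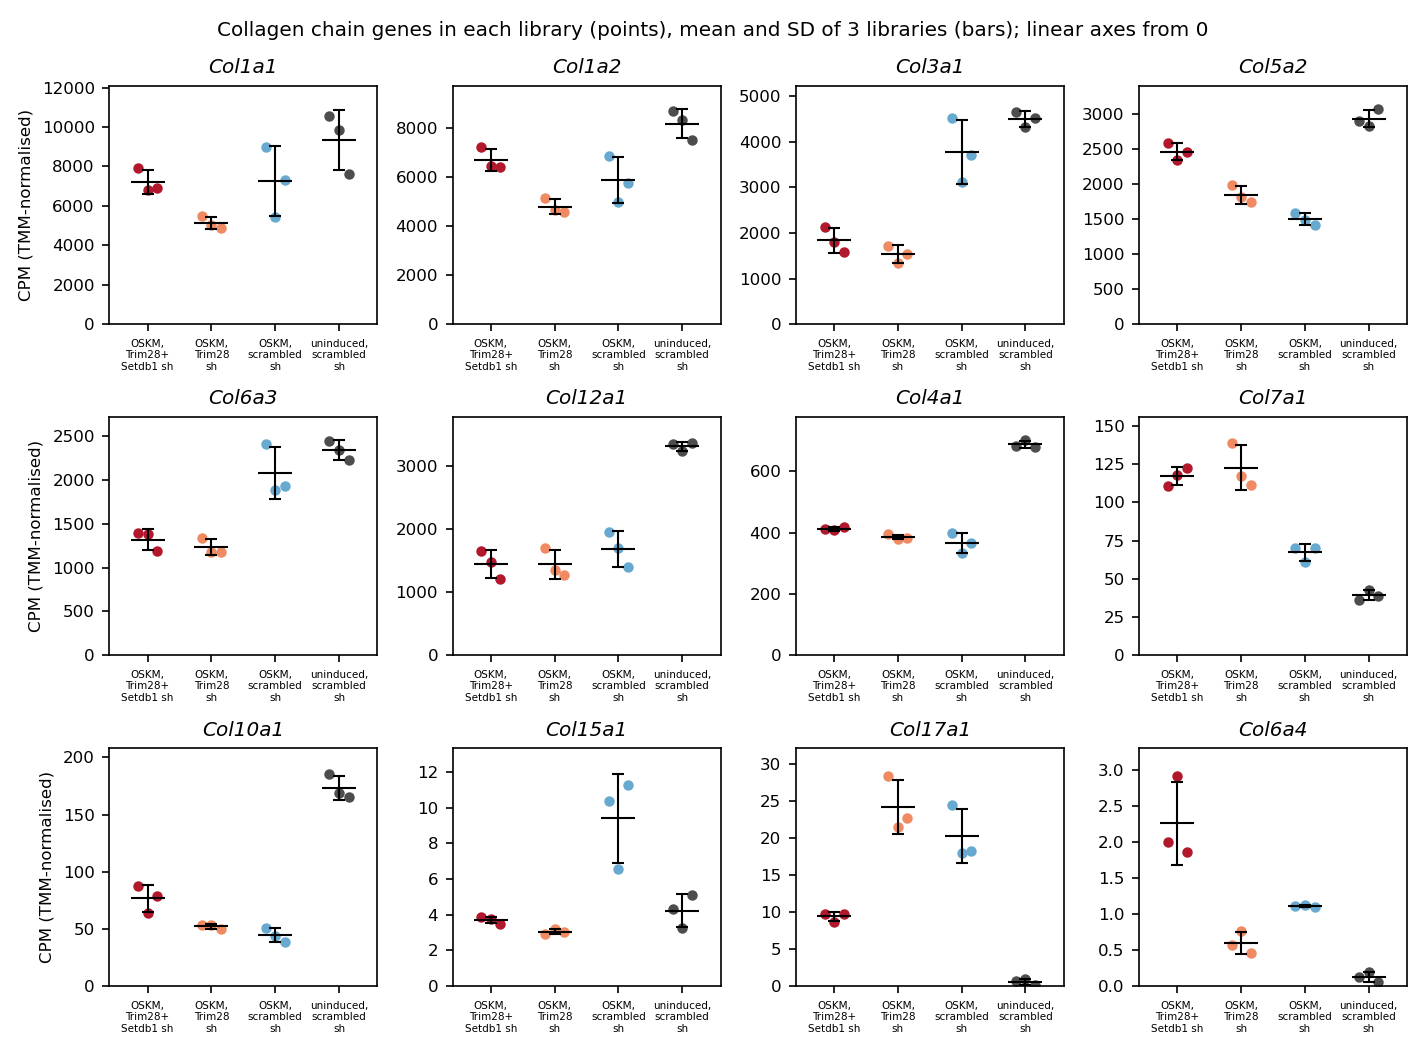
TMM-normalised CPM of 12 collagen chain genes in each library (points), with the mean and SD of the 3 libraries of a group (bars), on linear axes that start at 0. Col3a1 lies at 1332 to 2128 CPM in the 6 libraries with a Trim28 hairpin and at 3108 to 4653 CPM in the other libraries, while Col5a2 is lowest in the induced controls.

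Type VI collagen, whose Col6a1, Col6a2 and Col6a3 chains assemble into beaded filaments close to the cell surface, was lowered with the hairpins and not by induction at the threshold used. Col6a3 (1:90765923-90843971) had 1393, 1379 and 1184 CPM in double-knockdown, 1339, 1182 and 1181 CPM in Trim28-knockdown, 2414, 1883 and 1930 CPM in induced control, and 2447, 2346 and 2224 CPM in uninduced control libraries. All 6 libraries with a Trim28 hairpin lay below the others. Col6a2 had 528, 443 and 411 CPM in double-knockdown, 417, 360 and 366 CPM in Trim28-knockdown, 819, 532 and 673 CPM in induced control, and 788, 745 and 675 CPM in uninduced control libraries. Col6a1 had 967, 827 and 804 CPM in double-knockdown, 925, 825 and 821 CPM in Trim28-knockdown, 1290, 934 and 1110 CPM in induced control, and 1317, 1239 and 1169 CPM in uninduced control libraries. Col6a1 values overlapped between double-knockdown and induced control libraries, Col6a2 values did not. With both hairpins the 3 chains fell by 0.36 ± 0.10 (Col6a1), 0.55 ± 0.13 (Col6a2) and 0.65 ± 0.09 (Col6a3) on the log2 scale (edgeR adjusted p = 0.0117, 0.00283 and 5.98e-05). With the Trim28 hairpin they fell by 0.37 ± 0.10, 0.82 ± 0.13 and 0.75 ± 0.09 (adjusted p = 0.0127, 0.000152 and 2.28e-05), and the Col6a1 call was lost without Trim28-knockdown replicate 2 (adjusted p = 0.053) or 3 (0.0508). Their values between induced and uninduced controls were -0.16 ± 0.10, -0.13 ± 0.13 and -0.17 ± 0.09 (adjusted p = 0.179, 0.395 and 0.119).

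The low-level type VI chains Col6a4 and Col6a5, which lie beside each other on chromosome 9 with 28810 bases between them, rose with induction. Col6a4 (9:105989454-106096783) had 34, 54 and 32 reads in double-knockdown, 9, 13 and 8 reads in Trim28-knockdown, 19, 14 and 22 reads in induced control, and 2, 3 and 1 reads in uninduced control libraries. In CPM these were 2.00, 2.92 and 1.87 in double-knockdown, 0.571, 0.768 and 0.467 in Trim28-knockdown, 1.11, 1.13 and 1.1 in induced control, and 0.125, 0.193 and 0.0647 in uninduced control libraries. The groups did not overlap, and double-knockdown libraries were highest. Col6a4 was 3.74-fold higher in double than in single knockdown (log2 1.90 ± 0.27, edgeR adjusted p = 0.000158) and 2.04-fold higher than in induced controls (1.03 ± 0.24, adjusted p = 0.00386), the largest rise among the 11 members that rose between double and single knockdown. With the Trim28 hairpin it was lower than in induced controls without passing the threshold (-0.88 ± 0.31, adjusted p = 0.0512). Col6a5 had 1.18, 1.35 and 0.876 CPM in double-knockdown, 1.21, 1.60 and 1.34 CPM in Trim28-knockdown, 0.760, 2.35 and 1.00 CPM in induced control, and 0.312, 0.450 and 0.323 CPM in uninduced control libraries. It rose with induction (log2 1.80 ± 0.44, edgeR adjusted p = 0.00199) and passed in no comparison among induced groups.

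Fibril-associated collagens, which bind fibril surfaces and do not form fibrils themselves, had 5 falls and no rise among 7 tested members with induction, where 32.7% of all genes fell. One of the 5 falls, that of Col19a1, was lost in 6 of 18 alternative settings. Col12a1, abundant in loaded connective tissue, had 1656, 1473 and 1210 CPM in double-knockdown, 1704, 1346 and 1272 CPM in Trim28-knockdown, 1960, 1693 and 1392 CPM in induced control, and 3352, 3232 and 3359 CPM in uninduced control libraries. All 9 induced libraries lay below the uninduced ones and overlapped among themselves. The fall with induction was 1.97-fold (log2 -0.98 ± 0.13, edgeR adjusted p = 5.44e-06), and the values between induced groups were -0.22 ± 0.13 with both hairpins and -0.22 ± 0.13 with the Trim28 hairpin (adjusted p = 0.2 and 0.231). Col16a1, found at junctions of fibrils and microfibrils, had 212, 199 and 201 CPM in double-knockdown, 158, 140 and 134 CPM in Trim28-knockdown, 185, 148 and 163 CPM in induced control, and 244, 234 and 236 CPM in uninduced control libraries. Double-knockdown values lay above those of the other induced groups, which overlapped, and below the uninduced controls. Col16a1 was higher in double than in single knockdown (log2 0.50 ± 0.08, edgeR adjusted p = 0.000359) and than in induced controls (0.30 ± 0.08, adjusted p = 0.00788).

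Col14a1, which regulates fibril growth in skin and tendon, was highest among induced groups with the Trim28 hairpin alone. It had 14.8, 14.7 and 12.4 CPM in double-knockdown, 26.5, 27.8 and 19.7 CPM in Trim28-knockdown, 18.5, 13.4 and 17.3 CPM in induced control, and 28.1, 26.2 and 26.9 CPM in uninduced control libraries. Its Trim28-knockdown values lay above those of both other induced groups, which overlapped. It rose with the Trim28 hairpin (log2 0.58 ± 0.13, edgeR adjusted p = 0.00429) and was lower in double than in single knockdown (-0.82 ± 0.13, adjusted p = 0.000457). Of the type IX chains, which coat cartilage fibrils, Col9a1 had 0.353, 0.596 and 0.584 CPM in double-knockdown, 0.571, 0.591 and 0.642 CPM in Trim28-knockdown, 0.876, 0.972 and 0.300 CPM in induced control, and 2.62, 1.67 and 1.88 CPM in uninduced control libraries. The induced groups overlapped, below the uninduced controls, and Col9a1 fell with induction (log2 -1.60 ± 0.33, adjusted p = 0.000454). Col9a3 and Col20a1 passed in none of the 6 comparisons. Tcfl5, which overlaps Col9a3 on the other strand, had 57.9 CPM in double-knockdown, 35.0 CPM in Trim28-knockdown, 6.54 CPM in induced control and 6.89 CPM in uninduced control libraries. Reads from the bases that pair shares may not have been told apart, as the strand setting of the counting is not given. Col19a1, with 11 reads over the induced controls and 34 over the uninduced controls, passed with induction (-1.67 ± 0.63, adjusted p = 0.0289), a call lost without induced control replicate 1 or 2 or uninduced control replicate 1 or 2 (adjusted p 0.0541 to 0.223; -1.0 without uninduced control replicate 1) and with DESeq2 or limma-voom.

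Basement membrane type IV chains fell with induction in all 4 tested members, where 32.7% of all genes fell, and all 4 rose with both hairpins, where 18.1% of all genes rose. Col4a1 (8:11198423-11312826) had 411, 407 and 418 CPM in double-knockdown, 394, 381 and 383 CPM in Trim28-knockdown, 398, 332 and 365 CPM in induced control, and 684, 702 and 679 CPM in uninduced control libraries. Col4a2 had 399, 387 and 385 CPM in double-knockdown, 368, 334 and 342 CPM in Trim28-knockdown, 354, 275 and 313 CPM in induced control, and 658, 678 and 629 CPM in uninduced control libraries. All 9 induced libraries lay below the uninduced ones for both genes, and double-knockdown libraries lay just above induced controls. Induction lowered them by 0.91 ± 0.07 and 1.06 ± 0.08 on the log2 scale (edgeR adjusted p = 3.52e-09 and 6.18e-09). With both hairpins Col4a2 rose by 0.31 ± 0.08 (adjusted p = 0.00548) and Col4a1 by 0.17 ± 0.06 (adjusted p = 0.0468). The Col4a1 call was lost in 14 of 20 alternative settings, 10 of them with a single library left out, which was any double-knockdown or Trim28-knockdown replicate, induced control replicate 2 or 3, or uninduced control replicate 1 or 2 (adjusted p 0.0597 to 0.236; 0.10 on the log2 scale without induced control replicate 2).

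Col4a5 and Col4a6, the chains of a second type IV network, lie head to head on chromosome X with 1308 bases between them. Col4a5 had 160, 146 and 147 CPM in double-knockdown, 130, 119 and 121 CPM in Trim28-knockdown, 96.0, 101 and 87.9 CPM in induced control, and 239, 220 and 257 CPM in uninduced control libraries. Col4a6 had 7.88, 7.96 and 7.01 CPM in double-knockdown, 6.03, 6.14 and 5.19 CPM in Trim28-knockdown, 5.32, 4.13 and 4.0 CPM in induced control, and 13.5, 13.2 and 13.8 CPM in uninduced control libraries. For Col4a5 the 4 groups did not overlap, in the order induced control, Trim28-knockdown, double-knockdown, uninduced control from low to high; for Col4a6 Trim28-knockdown and induced control values overlapped. Both rose with both hairpins relative to induced controls (log2 0.67 ± 0.08, edgeR adjusted p = 5.36e-06 for Col4a5, and 0.76 ± 0.13, adjusted p = 0.000363 for Col4a6). Between double and single knockdown the values were 0.29 ± 0.07 (adjusted p = 0.0107) and 0.40 ± 0.13 (adjusted p = 0.038). The Col4a5 call there was lost without double-knockdown replicate 1 (adjusted p = 0.0655) or Trim28-knockdown replicate 2 (0.0604). The Col4a6 call was lost in 9 of 20 alternative settings, among them leaving out any Trim28-knockdown replicate, double-knockdown replicate 1 or 2, or uninduced control replicate 1 or 2 (adjusted p 0.0504 to 0.161).

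All 3 short-chain network chains fell with induction, where 32.7% of all genes fell, and 2 of them rose with both hairpins, where 18.1% of all genes rose. Col10a1, the marker chain of hypertrophic cartilage, had 87.8, 64.2 and 78.7 CPM in double-knockdown, 53.4, 53.6 and 49.9 CPM in Trim28-knockdown, 51.2, 44.3 and 39.1 CPM in induced control, and 185, 169 and 166 CPM in uninduced control libraries. It was 3.87-fold lower in induced than in uninduced controls (log2 -1.95 ± 0.11, edgeR adjusted p = 1.63e-10) and 1.71-fold higher with both hairpins than in induced controls (0.78 ± 0.11, adjusted p = 4.28e-05). Col8a1, made by vessel walls and the cornea, had 307, 289 and 283 CPM in double-knockdown, 242, 223 and 238 CPM in Trim28-knockdown, 199.6, 204 and 175 CPM in induced control, and 441, 442 and 481 CPM in uninduced control libraries. For both genes the uninduced controls were highest, apart from all induced groups, and double-knockdown libraries were highest among induced groups. Induced controls were lowest, overlapping with Trim28-knockdown libraries for Col10a1 and apart from them for Col8a1. Col8a1 rose with both hairpins (log2 0.60 ± 0.07, edgeR adjusted p = 7.76e-06) and with the Trim28 hairpin (0.28 ± 0.07, adjusted p = 0.00795, and 0.0549 without induced control replicate 3). Col8a2 had 4.23, 2.60 and 1.81 CPM in double-knockdown, 4.12, 2.01 and 2.04 CPM in Trim28-knockdown, 7.54, 2.67 and 2.80 CPM in induced control, and 15.7, 12.7 and 18.0 CPM in uninduced control libraries. Induced control replicate 1 stood above the other induced controls. Col8a2 fell with induction (-1.81 ± 0.32, edgeR adjusted p = 0.000117, and -2.48 without that library) and passed in no comparison among induced groups. Nt5dc1 shares its locus with Col10a1 on the other strand and had 12.5 CPM in double-knockdown, 15.7 CPM in Trim28-knockdown, 17.5 CPM in induced control and 16 CPM in uninduced control libraries. Whether reads were counted by strand is not given, so reads from the bases that such a pair shares may not have been told apart.

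Multiplexins, basement membrane proteoglycan cores whose ends can be released as antiangiogenic fragments, rose with induction and fell with the hairpins. Col15a1 had 3.88, 3.74 and 3.50 CPM in double-knockdown, 2.92, 3.19 and 3.03 CPM in Trim28-knockdown, 10.4, 6.56 and 11.3 CPM in induced control, and 4.31, 3.28 and 5.11 CPM in uninduced control libraries. The induced controls lay above every other group, and the ranges of double-knockdown and uninduced control libraries overlapped. It was 2.57-fold lower in double-knockdown (log2 -1.36 ± 0.19, edgeR adjusted p = 3.97e-05) and 3.13-fold lower in Trim28-knockdown cells (-1.65 ± 0.20, adjusted p = 1.24e-05) than in induced controls, the largest fall among members in either comparison. Col18a1, the source of endostatin, had 275, 250 and 238 CPM in double-knockdown, 266, 263 and 242 CPM in Trim28-knockdown, 373, 305 and 367 CPM in induced control, and 195, 172 and 166 CPM in uninduced control libraries. All hairpin libraries lay between induced and uninduced controls. Slc19a1, which overlaps Col18a1 on the other strand, had 23.4 CPM in double-knockdown, 24.0 CPM in Trim28-knockdown, 24.6 CPM in induced control and 17.8 CPM in uninduced control libraries. Reads from the bases the pair shares may not have been told apart. Col18a1 rose with induction (log2 0.97 ± 0.09, edgeR adjusted p = 5.66e-08). It fell by 0.45 ± 0.09 with both hairpins (adjusted p = 0.000658) and by 0.44 ± 0.09 with the Trim28 hairpin (adjusted p = 0.00123).

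Col7a1 and Col17a1 tie the epidermis to the dermis, as anchoring fibrils below the basement membrane and as a transmembrane chain of hemidesmosomes. Col17a1 (19:47646344-47692094) had 9.82, 8.66 and 9.81 CPM in double-knockdown, 28.4, 21.5 and 22.8 CPM in Trim28-knockdown, 24.5, 18.0 and 18.4 CPM in induced control, and 0.687, 0.964 and 0.129 CPM in uninduced control libraries. Uninduced controls, with 11, 15 and 2 reads, were lowest, double-knockdown libraries lay between, and Trim28-knockdown and induced control values overlapped. It was 33.8-fold higher in induced than in uninduced controls (log2 5.08 ± 0.28, edgeR adjusted p = 1.21e-10), the largest rise of any tested member. With both hairpins it was 2.16-fold lower than in induced controls (-1.11 ± 0.17, adjusted p = 0.000132) and 2.57-fold lower than with the Trim28 hairpin alone (-1.36 ± 0.17, adjusted p = 5.62e-05). Its value with the Trim28 hairpin alone was 0.25 ± 0.16 (adjusted p = 0.289).

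Col7a1 (9:108953586-108984875) had 111, 118 and 123 CPM in double-knockdown, 139, 117 and 111 CPM in Trim28-knockdown, 70.3, 61.0 and 70.3 CPM in induced control, and 36.3, 42.6 and 38.8 CPM in uninduced control libraries. It stepped up with induction and again with the hairpins, and the 2 hairpin groups overlapped. The rise was 0.78 ± 0.09 with induction (edgeR adjusted p = 1.71e-06), 0.80 ± 0.09 with both hairpins (adjusted p = 4.93e-06) and 0.86 ± 0.09 with the Trim28 hairpin (adjusted p = 3.01e-06) on the log2 scale. Double and single knockdown differed by -0.07 ± 0.09 (adjusted p = 0.644).

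Markers of basal keratinocytes rose with induction, as both genes did, and went partly another way in the other comparisons. With induction 7 of 8 tested basal keratinocyte markers rose and none fell (median log2 3.7, against -0.02 over all genes, of which 32.7% rose), among them Krt14 (505 CPM in induced and 0.872 CPM in uninduced controls), Itgb4 (749 and 39.5 CPM in the same order) and Lamb3 (49.6 and 2.63 CPM). The list's summed level was 1916 to 2219 CPM in double-knockdown, 2854 to 3124 CPM in Trim28-knockdown, 2240 to 2256 CPM in induced control and 500 to 526 CPM in uninduced control libraries, and no marker was at 0 in any group. In double against single knockdown 5 of the 8 fell and none rose (11.7% of all genes fell), while Col17a1 fell and Col7a1 did not pass. With both hairpins against induced controls 1 rose and 3 fell (18.1% and 18.5% of all genes), while Col7a1 rose and Col17a1 fell. With the Trim28 hairpin 3 rose and 2 fell (13.1% and 11.8% of all genes), while Col7a1 rose and Col17a1 did not pass. The part of this marker list in the Col7a1 and Col17a1 values was not tested.

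Other transmembrane and unclassed members were scarce. Col23a1 had 1.59, 1.62 and 1.28 CPM in double-knockdown, 1.27, 1.89 and 1.75 CPM in Trim28-knockdown, 5.14, 2.83 and 2.30 CPM in induced control, and 7.11, 7.32 and 7.57 CPM in uninduced control libraries. The hairpin groups overlapped with each other, below all induced controls, which in turn lay below all uninduced controls. Col23a1 fell at each step, with induction (log2 -1.10 ± 0.22, edgeR adjusted p = 0.000368) and further with both hairpins (-1.19 ± 0.27, adjusted p = 0.00292) or the Trim28 hairpin (-1.06 ± 0.27, adjusted p = 0.00879). Col25a1, a neuronal transmembrane collagen, had 1.41, 1.30 and 1.34 CPM in double-knockdown, 1.97, 1.06 and 1.57 CPM in Trim28-knockdown, 2.10, 1.13 and 1.05 CPM in induced control, and 0.687, 0.642 and 0.841 CPM in uninduced control libraries. The induced groups overlapped, above the uninduced controls. Col25a1 rose with induction (0.98 ± 0.33, adjusted p = 0.0165), a call lost without induced control replicate 1 (0.59, adjusted p = 0.137) or uninduced control replicate 2 (adjusted p = 0.0535). Col28a1 was 5.40-fold lower in induced than in uninduced controls (log2 -2.43 ± 0.19, adjusted p = 1.25e-08), the largest fall of any member with induction. It had 4.70, 3.09 and 4.20 CPM in double-knockdown, 3.93, 2.90 and 4.55 CPM in Trim28-knockdown, 4.50, 2.35 and 3.10 CPM in induced control, and 17.8, 17.4 and 19.5 CPM in uninduced control libraries, so that the induced groups overlapped far below the uninduced controls.

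Col26a1, a short collagen-like chain first described in testis and ovary, had 28, 15 and 27 reads in double-knockdown, 16, 25 and 16 reads in Trim28-knockdown, 8, 1 and 4 reads in induced control, and 2, 2 and 0 reads in uninduced control libraries. Every hairpin library was above every library with the scrambled hairpin. Relative to induced controls it rose by 2.32 ± 0.47 on the log2 scale with both hairpins (edgeR adjusted p = 0.00112) and by 2.09 ± 0.49 with the Trim28 hairpin (adjusted p = 0.00459), both resting on 13 reads over the induced controls, 8 of them in replicate 1. Without that library the values were 3.04 (adjusted p = 0.00059, edgeR) with both hairpins and 2.82 (adjusted p = 0.0023) with the Trim28 hairpin.

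The 6 untested members had few reads throughout. Col13a1 had 4 reads over double-knockdown, 3 over Trim28-knockdown, 4 over induced control and 0 over uninduced control libraries. Col4a3, a type IV chain of the kidney glomerulus, had 22 reads over double-knockdown, 29 over Trim28-knockdown, 4 over induced control and 16 over uninduced control libraries. Its partner Col4a4, head to head with it with 71 bases between, had 14, 24, 12 and 19 reads over the same groups in that order. Col6a6, Col9a2 and Col22a1 had between 6 and 30 reads over each group. No difference is drawn from these counts.

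Chains that assemble together did not all keep their ratio. Per kilobase, Col1a1 over Col1a2 was 0.971 ± 0.0199 in double-knockdown, 0.966 ± 0.00928 in Trim28-knockdown, 1.1 ± 0.101 in induced control and 1.03 ± 0.0982 in uninduced control libraries (SD, n = 3 each), and the ranges of induced and uninduced controls overlapped. Col4a1 over Col4a2 ran from 1.00 to 1.18 in all 12 libraries. Col4a5 over Col4a6 was 20.2 ± 1.37 in double-knockdown and 21.8 ± 1.96 in Trim28-knockdown libraries (SD, n = 3 each). That ratio was 21.9 ± 3.33 in induced control and 18.0 ± 0.987 in uninduced control libraries (SD, n = 3 each). Col6a1 over Col6a2 was 1.82 ± 0.0628 in double-knockdown and 2.17 ± 0.0351 in Trim28-knockdown, against 1.60 ± 0.0876 in induced control and 1.63 ± 0.0364 in uninduced control libraries (SD, n = 3 each). Each hairpin group lay apart from the others in that ratio, and the controls overlapped. Col6a3 over Col6a1 was 0.584 to 0.676 in double-knockdown and 0.581 to 0.588 in Trim28-knockdown, against 0.706 to 0.818 in induced control and 0.754 to 0.772 in uninduced control libraries. Col5a1 over Col5a2 was 0.489 to 0.513 in double-knockdown and 0.526 to 0.553 in Trim28-knockdown, against 0.627 to 0.773 in induced control and 0.533 to 0.642 in uninduced control libraries.

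The ratio of the chromosome 1 neighbours Col3a1 and Col5a2 also differed between groups. Col3a1 over Col5a2 per kilobase was 0.888 ± 0.107 in double-knockdown, 0.988 ± 0.0972 in Trim28-knockdown, 3.00 ± 0.447 in induced control and 1.83 ± 0.0817 in uninduced control libraries (SD, n = 3 each). The hairpin groups overlapped with each other and lay below both controls. These ratios were not tested.

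**Figure D4:**
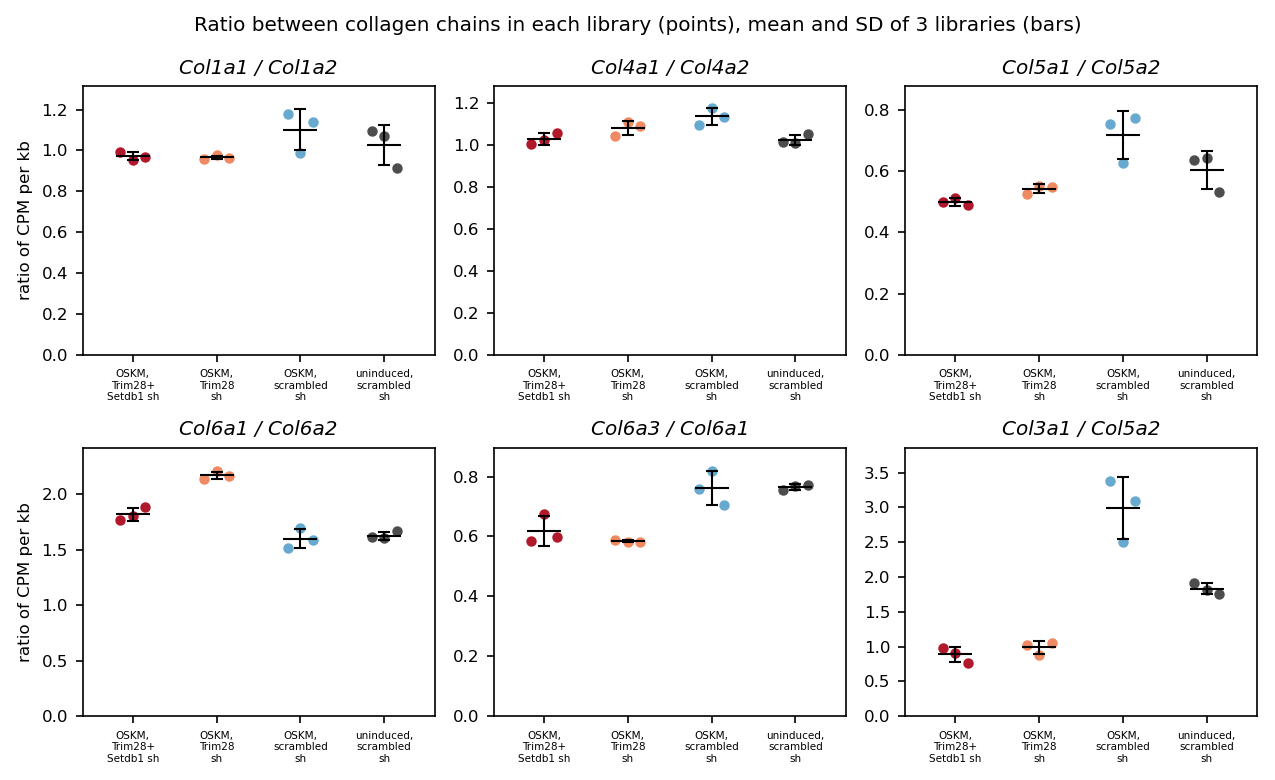
Ratio of CPM per kilobase of transcript between 6 pairs of collagen chain genes in each library (points), with the mean and SD of the 3 libraries of a group (bars), on axes that start at 0. Col4a1 over Col4a2 stays between 1.00 and 1.18, while Col3a1 over Col5a2 is 2.51 to 3.38 in induced controls and 0.770 to 1.06 in the 6 libraries with a Trim28 hairpin.

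Genes that modify and fold collagen in the endoplasmic reticulum fell with induction, and many were higher in double than in single knockdown. Of 20 tested, 15 fell and none rose between induced and uninduced controls (median log2 -0.52, against -0.02 over all genes, of which 32.7% fell). P4ha3, P4ha2 (prolyl 4-hydroxylase subunits) and Fkbp7 (a prolyl isomerase) fell by 1.60 ± 0.11, 0.83 ± 0.08 and 0.97 ± 0.08 on the log2 scale (edgeR adjusted p = 3.04e-09, 6.81e-08 and 4.23e-08). With the Trim28 hairpin 2 rose and 9 fell relative to induced controls (13.1% and 11.8% of all genes), with P4ha1 at -0.79 ± 0.07 (edgeR adjusted p = 3.31e-07). With both hairpins 7 rose and 5 fell (18.1% and 18.5% of all genes). Between double and single knockdown 13 rose and 1 fell (median 0.28, against 0.00 over all genes, of which 10% rose). Serpinh1, the collagen chaperone HSP47, averaged 1004 CPM in double-knockdown and 690 CPM in Trim28-knockdown libraries (log2 0.54 ± 0.08, adjusted p = 0.000291). Colgalt2, which attaches galactose to hydroxylysine, averaged 1.58 CPM in double-knockdown, 2.65 CPM in Trim28-knockdown and 0.0723 CPM in induced control libraries, the last below 3 reads in any library.

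Export and propeptide processing genes showed 1 rise and 10 falls among 15 tested with induction (median log2 -0.57, against -0.02 over all genes, of which 32.7% rose and 32.7% fell). Between double and single knockdown 6 rose and 1 fell (median 0.24, against 0.00 over all genes, of which 10% rose and 11.7% fell). Sparc, a collagen chaperone of the matrix, averaged 3440 CPM in double-knockdown, 2544 CPM in Trim28-knockdown, 2506 CPM in induced control and 4502 CPM in uninduced control libraries. Tll1, a relative of the C-propeptide protease Bmp1, fell with induction (-1.44 ± 0.12, edgeR adjusted p = 2.83e-08) and rose with both hairpins (1.03 ± 0.12, adjusted p = 8.52e-06). Of 8 collagen receptor genes, 7 fell and none rose with induction (median -0.60, against -0.02 over all genes, of which 32.7% fell). Among the falls were Ddr2 (-0.95 ± 0.08, edgeR adjusted p = 4.5e-08) and Itga11 (-1.50 ± 0.14, adjusted p = 9.14e-08). Itgb1, the shared integrin subunit, rose with both hairpins (0.80 ± 0.08, adjusted p = 9.18e-07) and with the Trim28 hairpin (0.53 ± 0.08, adjusted p = 8.56e-05).

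Laminins and other partners of type IV collagen were called in shares near those of all genes with induction. Of 15, 6 rose and 5 fell (median log2 0.00, against -0.02 over all genes, of which 32.7% rose and 32.7% fell). The epithelial laminin chains Lama3 (5.79 ± 0.16) and Lamb3 (4.23 ± 0.11) rose, while Lamb2 (-1.41 ± 0.14), Nid1 (-0.66 ± 0.07) and Nid2 (-0.87 ± 0.13) fell on the log2 scale. With both hairpins 5 rose and 4 fell relative to induced controls (18.1% and 18.5% of all genes; median -0.03), with Lamb3 at 0.92 ± 0.08 and Lamc1 at -0.61 ± 0.06 (edgeR adjusted p = 2.58e-07 and 1.33e-06). Lamb3 is also in the basal keratinocyte list.

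Markers of fibroblasts and contractile cells also differed between the groups. Of 10 fibroblast markers, 7 fell and 2 rose with induction (median log2 -0.81; 32.7% of all genes fell and 32.7% rose). In each comparison of a hairpin group with induced controls 5 rose and 3 fell (18.1% and 18.5% of all genes with both hairpins, 13.1% and 11.8% with the Trim28 hairpin; medians 0.24 and 0.16), with Dcn, Lum and Pdgfra falling and Vim rising in both. Their summed level was 17546 to 18609 CPM in double-knockdown, 14831 to 15639 CPM in Trim28-knockdown, 12157 to 14267 CPM in induced control and 25554 to 28000 CPM in uninduced control libraries. All 6 smooth muscle markers fell with induction (median -1.41), where 32.7% of all genes fell. All 6 rose with both hairpins (median 1.65), where 18.1% of all genes rose. With the Trim28 hairpin 5 of the 6 smooth muscle markers rose (median 0.93), where 13.1% of all genes rose. Their summed level was 2508 to 3074 CPM in double-knockdown, 1756 to 2088 CPM in Trim28-knockdown, 987 to 1156 CPM in induced control and 2622 to 3024 CPM in uninduced control libraries. Chondrocyte markers summed to 10.2 to 11.8 CPM in double-knockdown and 11.7 to 14.5 CPM in Trim28-knockdown libraries. Their sum was 19.3 to 28.8 CPM in induced control and 30.1 to 34.1 CPM in uninduced control libraries. Chad was at 0 in every induced group. Of 5 tested chondrocyte markers 4 fell and none rose with both hairpins, where 18.5% of all genes fell. Osteoblast markers summed to 48.5 to 58.2 CPM in double-knockdown and 38.3 to 45.2 CPM in Trim28-knockdown libraries. They summed to 31.7 to 40.7 CPM in induced control and 51.7 to 57.8 CPM in uninduced control libraries. Of 6 tested endothelial markers 5 rose and 1 fell with induction, where 32.7% of all genes rose and 32.7% fell. Endothelial markers summed to 47.3 to 54.9 CPM in double-knockdown, 71.3 to 75.9 CPM in Trim28-knockdown, 48.8 to 62.5 CPM in induced control and 12.6 to 13.8 CPM in uninduced control libraries. Skeletal muscle markers summed to 44.9 to 56.8 CPM in double-knockdown and 33.2 to 34.7 CPM in Trim28-knockdown libraries. Their sum was 15.5 to 19.5 CPM in induced control and 24.8 to 32.5 CPM in uninduced control libraries. Primitive endoderm markers summed to 98.9 to 113 CPM in double-knockdown and 95.9 to 103 CPM in Trim28-knockdown libraries. Their sum was 101 to 121 CPM in induced control and 176 to 195 CPM in uninduced control libraries. The part of these cell-type markers in the collagen values was not tested.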

How the data were processed

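Whole-number read counts per gene, as the authors deposited them, were used for 12 libraries, with no normalization applied before deposit. The tools named by the submitters' processing notes are TopHat2 2.0.12, Bowtie 1.1 and HTSeq, with no role given. The genome build and the strand setting of the counting are not given in the sources used here. All 44 members overlapped the gene of the same identifier in GENCODE M21 (GRCm38), 43 with the same start, and coordinates are as deposited. Transcript lengths are those of the GENCODE transcript with the longest coding sequence. Groups and replicate numbers came from sample titles.

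The test was the quasi-likelihood F-test of edgeR 4.0.16 under R 4.3.3, with TMM factors and 1 term per group over all libraries. The expression filter of edgeR (minimum count 10, minimum total 15) left 14520 genes. P-values were adjusted by Benjamini and Hochberg over these genes, with a threshold of 0.05. Errors of log2 fold changes are standard errors. The fit was tested on simulated counts of 2 groups with the same scatter setting for every gene. That setting does not cover the unequal scatter of these libraries. The members, their classes and the gene lists were chosen with earlier results of these data known. Members given in every library were the 2 of highest level in each class and the 5 largest rises and falls of each comparison past the threshold with at least 1 CPM, with a few more of the same families added after their values were seen; from other lists, up to 3 genes of smallest p in each direction were named. Nt5dc1, Slc19a1 and Tcfl5 were added after seeing the data. No library repeated another of its group (chi-square statistic over its degrees of freedom from 1.94 to 18.1), so none were merged.

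Samples of the same replicate number deviated together in the comparison of double knockdown with induced control (correlations 0.37, 0.19 and 0.26), so its pairing rests on the data and not on a label. Alternatives were RLE factors, TMM without collagens, no filter, at least 1 CPM in 6 libraries, DESeq2 1.42.0, limma-voom (limma 3.58.1), only the 2 groups compared, a replicate block, and each library left out. Limits of 3 reads cover counting error only. Protein sequences were not used here, and 1 gene of the basement membrane list is not reported here by name.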

Additional observations from a re-analysis of the deposited data

How the results depend on the processing

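The members counted as risen or fallen stayed within 1.5 times their number in all 6 comparisons under every alternative, with 2 exceptions: the 11 rises between double and single knockdown were 7 without double-knockdown replicate 1 and 7 without Trim28-knockdown replicate 2. Over all libraries left out in turn that count ran from 7 to 13. No member called changed direction. Of the called members, 20 of 22 kept their call in every alternative with both hairpins against induced controls, 13 of 17 with the Trim28 hairpin, 9 of 13 between double and single knockdown and 26 of 30 with induction. Against uninduced controls, 28 of 33 kept it in double-knockdown and 31 of 32 in Trim28-knockdown cells.

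The replicate block gave 14 rises and 10 falls with both hairpins, 7 and 14 with the Trim28 hairpin, 13 and 2 between double and single knockdown, and 8 and 25 with induction. Against uninduced controls it gave 9 and 24 in double-knockdown and 7 and 26 in Trim28-knockdown cells. Same-numbered samples also deviated together, more weakly, between double and single knockdown (correlations 0.24, 0.05 and 0.12). Between Trim28 knockdown and induced control the correlations were 0.20, 0.07 and 0.13. In comparisons with uninduced controls they were negative or of both signs. The block added Col2a1, Col6a4, Col11a1 and Col16a1 as falls with the Trim28 hairpin. Col3a1 and Col6a2 were added as rises between double and single knockdown. Also added were Col3a1, Col6a1 and Col6a3 as falls with induction, and Col15a1 as a fall in Trim28-knockdown against uninduced cells. The data do not pair the replicate numbers in these comparisons with uninduced controls. No other scaling moved the median of all genes by over 0.1 on the log2 scale. Members under about 1 CPM rest on few reads per library, and differences among them were not detectable at this depth unless given as passed.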
